A study of Mus musculus with 12 samples.

Results

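The casein and whey protein genes of the mouse were followed in cultured mammary epithelial cells. The set holds 7 genes, chosen by symbol from the authors' gene table: the caseins Csn1s1, Csn1s2a, Csn1s2b, Csn2 and Csn3, and the whey protein genes Wap and Lalba. All 7 had a row among the 28427 rows of the table, and 6 of them were among the 13951 genes with enough counts to test. Wap was too low to test. The cells came from C57BL/6 mice, and their age was not given in the sources used here. For 48 h or 96 h they were kept either on collagen-coated plastic, where they form monolayers, or in growth factor-reduced Matrigel, a basement membrane gel in which they form spheroids. Each of the 4 groups held 3 libraries. Progesterone and prolactin were part of the medium in all 4 groups, so no group shows these genes without the hormones. Matrix and culture format changed together, and their parts in a difference cannot be told apart. The series calls its libraries biological replicates without naming the animals behind them, so the p-values measure the spread between these samples. The study concerned chromosome segregation, and its labels state no question about milk proteins.

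Caseins are the phosphorylated proteins that carry calcium in milk. The alpha-s and beta caseins bind calcium phosphate, and kappa-casein coats the micelle that they form. Prolactin acts through its receptor and the kinase JAK2 on the transcription factor STAT5, which binds the sequence TTCNNNGAA in front of several milk protein genes. In the mammary gland this program marks the alveolar cells of pregnancy and lactation, and cultured cells are known to need hormones together with a laminin-rich matrix to turn it on.

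RefSeq promoter windows (build GRCm38.p6, 250 bases before to 50 bases after the gene start) were matched by symbol for 5 of the 7 genes. Csn1s2b and Csn3 had no window. The TTCNNNGAA letters, a palindrome and so the same on both strands, were present in 3 of the 5 windows and in 8.3% of all 32851 windows of this length. The upstream bases of Csn1s1 (chr5:87665958-87666207, plus strand) and Csn2 (chr5:87699426-87699675, minus strand) are shown because these genes followed different courses over the groups while each held a match at a similar distance from the start. Of Csn1s2a (chr5:87774460-87774488, plus strand) the match and its flanks are shown. Capitals mark the match, and each sequence runs 5′ to 3′.
Csn1s1: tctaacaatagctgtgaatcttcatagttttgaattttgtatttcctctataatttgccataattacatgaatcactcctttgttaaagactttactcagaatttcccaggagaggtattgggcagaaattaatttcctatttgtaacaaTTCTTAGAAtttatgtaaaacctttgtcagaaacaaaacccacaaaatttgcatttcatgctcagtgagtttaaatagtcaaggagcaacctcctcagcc
Csn2: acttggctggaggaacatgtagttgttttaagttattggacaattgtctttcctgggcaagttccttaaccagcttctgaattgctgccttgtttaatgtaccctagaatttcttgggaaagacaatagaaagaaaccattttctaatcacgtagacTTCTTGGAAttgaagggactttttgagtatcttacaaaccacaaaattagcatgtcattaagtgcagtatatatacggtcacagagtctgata
Csn1s2a: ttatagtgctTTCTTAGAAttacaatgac
The match lay at bases -100 to -92 in Csn1s1 (TTCTTAGAA) and at bases -93 to -85 in Csn2 (TTCTTGGAA), counted back from the first transcribed base. In Csn1s2a it lay after the start, at transcribed bases 21 to 29. The windows of Wap and Lalba held no such letters. The C/EBP letters TTGCNNAA, searched on both strands and held by 10.8% of all windows, were in none of the 5 windows. The same was so for the palindromic sites of the glucocorticoid receptor (0.475% of all windows) and of NF1 factors (0.0365%).

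Apart from Wap, which held at most 2 counts in any group, the casein and whey genes were far higher in spheroids than in monolayers at each time. These genes rose further between 48 h and 96 h in spheroids. In monolayers the 6 genes other than Csn3 held at most 19 counts each at 48 h, and Csn1s1 and Csn3 rose by 96 h. The summed level of the 7 genes was 54.0 ± 5.78 CPM (counts per 1000000, after library scaling; SD, n = 3) in monolayers at 48 h and 121 ± 30.3 CPM at 96 h. In spheroids it was 504 ± 22.8 CPM at 48 h and 4588 ± 405 CPM at 96 h. The 7 genes thus took 0.459% of the scaled counts of a spheroid library at 96 h. In bulk RNA, fewer milk-producing cells and less milk protein RNA per cell cannot be told apart.

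All 6 tested genes rose in spheroids at 48 h, when 57.9% of all tested genes changed with 31.6% higher and 26.4% lower (39.6% higher under scaling by total count alone). All 6 rose at 96 h too, when 73.8% changed, 37.3% higher and 36.5% lower. The terms rose and fell are kept for an adjusted p under 0.05 (edgeR quasi-likelihood, Benjamini-Hochberg over all tested genes). The 3 spheroid libraries did not overlap the 3 monolayer libraries for any of the 6 at either time, which was also so for 60.0% of all tested genes at 48 h and for 78.9% at 96 h. The median log2 fold change of the 6 was 5.72 at 48 h and 7.18 at 96 h, beside 0.05 and -0.00 over all tested genes. With Csn1s2a, Csn1s2b and Lalba, which held 3 counts or fewer in monolayers, at the lower limit of their ratio, the medians were 5.05 and 6.16. The order of the genes by fold is not given, since the folds of these 3 rest on so few counts. On the deposited log2(FPKM + 1) values all calls remained, with smaller changes for genes near 0 in monolayers, such as 2.03 for Csn1s1 and 2.92 for Lalba at 48 h.

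**Figure D1:**
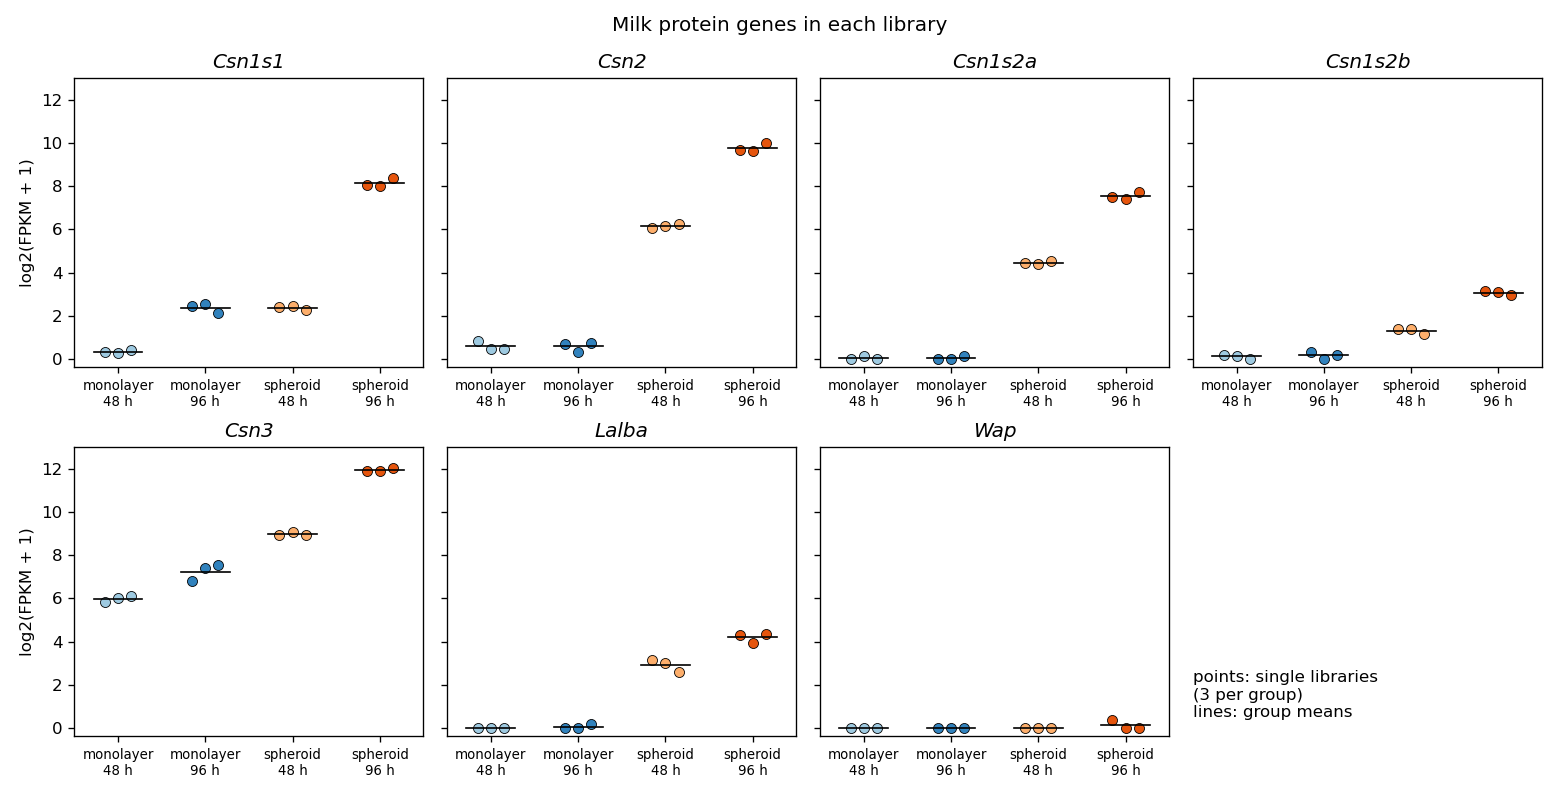
Level of each of the 7 genes in each of the 12 libraries, as log2(FPKM + 1), by group (points are libraries, lines are group means). In spheroids at 96 h Csn2 lies at 797 to 1015 FPKM and Csn3 at 3788 to 4181 FPKM, while Csn1s1 overlaps between monolayers at 96 h and spheroids at 48 h.

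Csn2 encodes beta-casein. Its level in monolayers was 0.882, 0.414 and 0.447 CPM at 48 h and 0.640, 0.250 and 0.705 CPM at 96 h (replicates 1, 2 and 3, in this order here and for each gene that follows). In spheroids it was 70.6, 77.2 and 81.0 CPM at 48 h and 894, 875 and 1121 CPM at 96 h. Every spheroid library was above every monolayer library, the spheroids at 96 h were above those at 48 h, and the 2 monolayer groups overlapped. The log2 fold change between 96 h and 48 h in monolayers was -0.01, with a 95% interval of -1.22 to 1.20 and 19 and 18 counts per group, so a change of up to about that interval's size was not detectable at this depth. Between 48 h and 96 h in spheroids Csn2 rose 12.6-fold (log2 fold change 3.66 ± 0.103 SE, adjusted p = 3.00e-14 by edgeR).

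Csn1s1 encodes an alpha-s1 casein. It had 0.196, 0.166 and 0.358 CPM in monolayers at 48 h, a total of 8 counts, and 5.36, 4.76 and 4.14 CPM at 96 h. In spheroids it had 5.39, 5.67 and 4.78 CPM at 48 h and 319, 317 and 407 CPM at 96 h. Monolayers at 96 h and spheroids at 48 h overlapped, the 48 h monolayers lay below both, and the 96 h spheroids lay above all others. Csn1s1 rose 19.1-fold with time in monolayers (log2 fold change 4.25 ± 0.370, adjusted p = 1.84e-08 by edgeR) and 65.7-fold in spheroids (6.04 ± 0.124, adjusted p = 2.83e-16). In monolayers 61.3% of tested genes changed with time, 30.1% higher and 31.3% lower (42.1% higher by total count alone). In spheroids 39.8% changed, 19.3% higher and 20.5% lower, and Csn1s1 ranked 4 of the 13951 tested genes by the size of its rise.

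Csn1s2a and Csn1s2b encode the alpha-s2 caseins. Csn1s2a had 1 count in the 3 monolayer libraries at 48 h and 1 count at 96 h. Its level in spheroids was 18.3, 17.8 and 19.7 CPM at 48 h and 158, 149 and 193 CPM at 96 h. The spheroid groups did not overlap each other, and the monolayers were at the limit of detection. The ratio of spheroids to monolayers was 622 at 48 h (95% counting interval 111 to 24598) and 5333 at 96 h (957 to 210679). These intervals cover counting error alone.

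Csn1s2b was the lowest casein in spheroids. It had 1.23, 1.16 and 0.890 CPM in spheroids at 48 h and 5.73, 5.67 and 5.12 CPM at 96 h. Monolayers held 2 counts at 48 h and 3 counts at 96 h. The groups of spheroids did not overlap each other or the monolayers, and the ratio of spheroids to monolayers was 18.4 at 48 h (95% counting interval 4.68 to 159) and 58.4 at 96 h (19.7 to 285). RSEM divides reads that fit several genes, and whether this affected the split between Csn1s2a and Csn1s2b or other caseins was not tested.

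Csn3 encodes kappa-casein. It was at 46.6, 54.1 and 58.5 CPM in monolayers at 48 h and 80.3, 127 and 139 CPM at 96 h. In spheroids it was at 386, 423 and 386 CPM at 48 h and 2974, 2989 and 3315 CPM at 96 h. The 4 groups did not overlap, and their order was monolayers at 48 h, monolayers at 96 h, spheroids at 48 h and spheroids at 96 h. Csn3 was 7.50-fold higher in spheroids at 48 h (log2 fold change 2.91 ± 0.146, adjusted p = 4.96e-12 by edgeR) and 26.9-fold higher at 96 h (4.75 ± 0.153, adjusted p = 4.78e-15). With time it rose 2.16-fold in monolayers and 7.76-fold in spheroids. Per length, in FPKM (fragments per gene length and library size), Csn3 ranked 8 among all rows in spheroids at 96 h and 1168 in monolayers at 48 h.

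Lalba encodes alpha-lactalbumin, the whey protein that turns the galactosyltransferase B4GALT1 into lactose synthase. It had no count in monolayers at 48 h and 1 count at 96 h. In spheroids it was at 5.48, 4.98 and 3.45 CPM at 48 h and 12.9, 9.95 and 13.9 CPM at 96 h. The spheroid groups did not overlap. Lalba was at least 52.2-fold higher in spheroids at 48 h, against a floor of 3 counts over the monolayer group, and its ratio at 96 h was 392 (95% counting interval 70.1 to 15524). Wap, the whey acidic protein of rodent milk, had 2 counts in 1 spheroid library at 96 h (replicate 1) and no count in the other 11 libraries. Its floor of 3 counts over a group stood for 0.0775 to 0.106 CPM, so Wap was at or under the floor in all groups.

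In monolayers 2 of the 6 tested genes rose with time, Csn1s1 and Csn3, and these were also the 2 whose groups did not overlap, as for 63.8% of all tested genes. Csn1s2a (adjusted p = 0.982 by edgeR), Csn1s2b (0.673) and Lalba (0.312) held 3 counts or fewer in each monolayer group, so no fold is given. In spheroids all 6 rose between 48 h and 96 h, with groups apart for all 6, as for 53.8% of tested genes. The rise was 65.7-fold for Csn1s1, 12.6-fold for Csn2, 8.97-fold for Csn1s2a, 7.76-fold for Csn3, 4.97-fold for Csn1s2b and 2.63-fold for Lalba. The level at 48 h was accordingly 1.52% of that at 96 h for Csn1s1, 7.92% for Csn2 and 37.9% for Lalba. The median log2 fold change of the 6 with time in spheroids was 3.06, beside 0.01 over all tested genes.

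**Figure D2:**
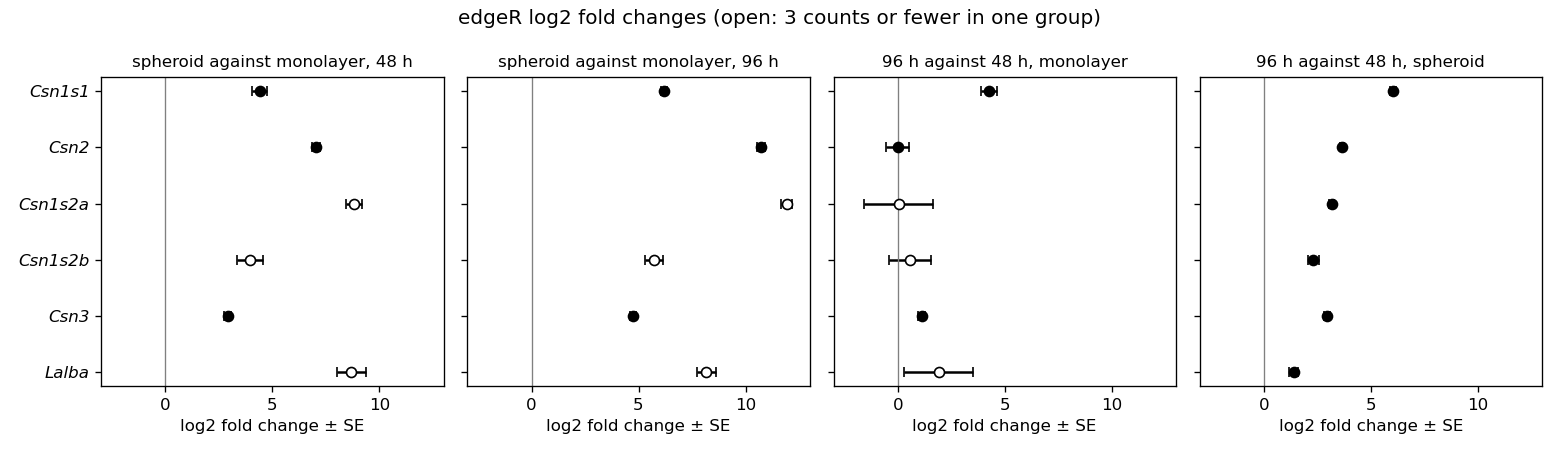
Log2 fold change of each tested gene with its SE in the 4 comparisons of format and time, from edgeR (open points have 3 counts or fewer in one group). Spheroid against monolayer is above 2.9 for every tested gene at both times, and time in monolayers is past the threshold for Csn1s1 and Csn3.

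Whether the spheroid difference itself grew between the times was tested by the format-by-time interaction, in which 53.3% of all tested genes passed, 26.9% upward and 26.4% downward (19.0% upward by total count alone). The difference was larger at 96 h for 3 of the 6 genes: by 3.67 ± 0.588 on the log2 scale for Csn2 (adjusted p = 4.38e-05 by edgeR), 1.84 ± 0.195 for Csn3 (adjusted p = 3.22e-07) and 1.78 ± 0.703 for Csn1s1 (adjusted p = 0.0405). The Csn1s1 call rests on 8 counts in the 48 h monolayers and was lost in 7 of 19 alternatives, with adjusted p of up to 0.290 without replicate 3 of that group. For Csn1s2a (3.11 ± 2.40, adjusted p = 0.287), Csn1s2b (1.75 ± 1.30, adjusted p = 0.321) and Lalba (-0.52 ± 0.637, adjusted p = 0.513) the monolayer groups held too few counts to show a difference. The SE of Lalba understates its error here, since its change over time in monolayers alone had an SE of 1.60. With limma on the deposited log2(FPKM + 1) values all 6 genes passed upward, Lalba included (1.21, adjusted p = 0.000233). On counts too the Lalba value turned positive, at 0.36 with DESeq2 and 1.40 without replicate 3 of the 96 h monolayers. The direction for Lalba thus depended on the method, the scale and the libraries kept.

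Spheroids at 48 h were also set against monolayers at 96 h, a comparison added after the overlap of Csn1s1 had been seen. Here 5 of the 6 genes were higher in the 48 h spheroids, in a comparison where 70.5% of tested genes changed, 36.1% higher and 34.4% lower. Csn2 was 132-fold higher (log2 fold change 7.05 ± 0.203, adjusted p = 1.73e-15 by edgeR) and Csn3 3.47-fold higher (adjusted p = 1.69e-09). The ratio was 592 for Csn1s2a (95% counting interval 106 to 23413), 149 for Lalba (26.3 to 5931) and 11.7 for Csn1s2b (3.64 to 59.6). Csn1s1 did not pass, with a log2 fold change of 0.15 ± 0.195, an interval of -0.30 to 0.60 and an adjusted p of 0.512. The 5 genes that passed were the 5 whose groups did not overlap, as for 74.1% of all tested genes.

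Levels of different genes were compared per length, as shares of the summed FPKM of the 7 genes. Kappa-casein was the bulk of the pool in all groups. Csn3 made up 98.6% of it in monolayers at 48 h and 96.7% at 96 h. In spheroids its share was 83.1% ± 0.816 (SD, n = 3) at 48 h and 74.1% ± 1.50 at 96 h. Csn2 was the second gene in spheroids, with 11.4% ± 0.827 at 48 h and 16.5% ± 0.953 at 96 h. Csn1s1 went from 0.675% ± 0.0512 to 5.39% ± 0.348. The share of Lalba was 1.09% ± 0.254 at 48 h and 0.329% ± 0.0424 at 96 h, a lower share although its level rose. The share of Csn1s2a was 3.43% at 48 h and 3.51% at 96 h (exact permutation p = 0.7). For the other 5 genes the groups were fully apart, with an exact permutation p of 0.1 each, the smallest that 3 against 3 libraries can give (0.12 adjusted over the 6 genes), so no share passed a threshold of 0.05.

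**Figure D3:**
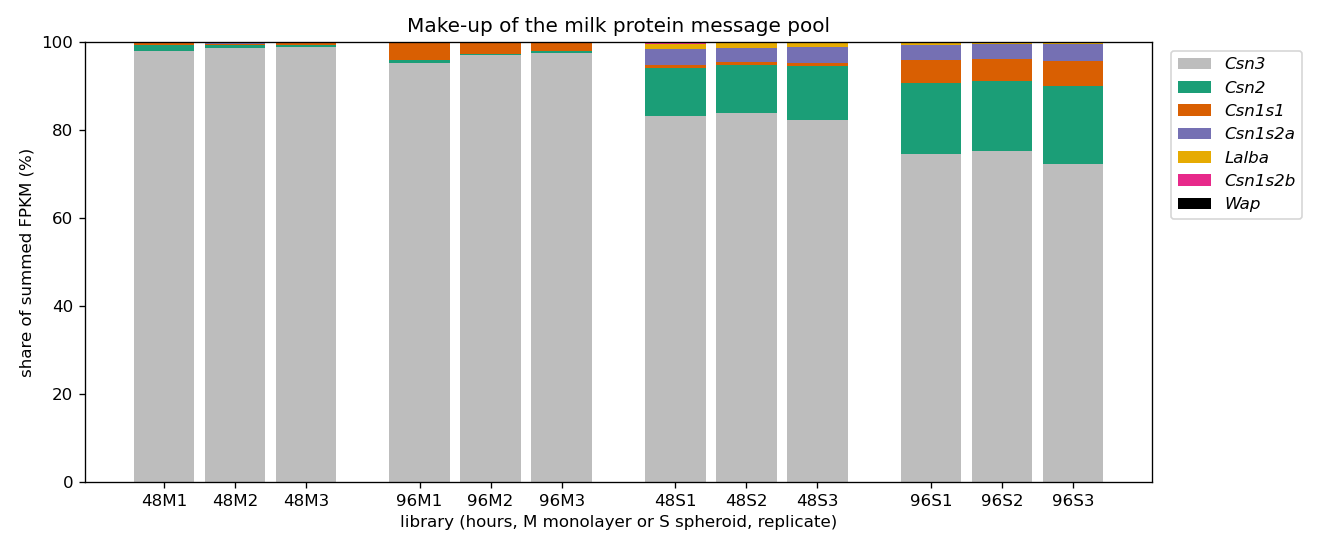
Share of each gene in the summed FPKM of the 7 genes, in percent, by library. The Csn3 share is lower and the Csn2 and Csn1s1 shares are higher in spheroids at 96 h than at 48 h.

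The amount of Csn1s1 per Csn2, as a ratio of FPKM, was 0.327, 0.324 and 0.329 in spheroids at 96 h. It was 0.0660, 0.0622 and 0.0501 in spheroids at 48 h. In monolayers it was 0.325, 0.6 and 0.868 at 48 h and 7.13, 19.8 and 5.03 at 96 h. The ratio was therefore near constant among the 96 h spheroids and above 1 in the 96 h monolayers alone, where Csn2 held 18 counts. This ratio was chosen after its values were seen.

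The 5 caseins lie in one cluster on chromosome 5, in the order Csn1s1, Csn2, Csn1s2a, Csn1s2b and, past Prr27, Odam and BC037156, Csn3. Of the neighbours in and beside the cluster, Odam alone held enough counts to test. Odam, which encodes a secreted protein of ameloblasts and other epithelia, had 5 counts in monolayers and 39 in spheroids at 48 h, and 3 and 62 at 96 h. It was higher in spheroids at 48 h (log2 fold change 3.12, adjusted p = 0.00085 by edgeR) and at 96 h (3.93). Prr27 had at most 1 count per group, BC037156 at most 2, Sult1e1 at most 3 and Sult1d1 at most 8, and Cabs1 and Smr3a had none. Levels in and beside the cluster thus ran from no count at Cabs1 to 3092 ± 193 CPM at Csn3 in the 96 h spheroids.

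**Figure D4:**
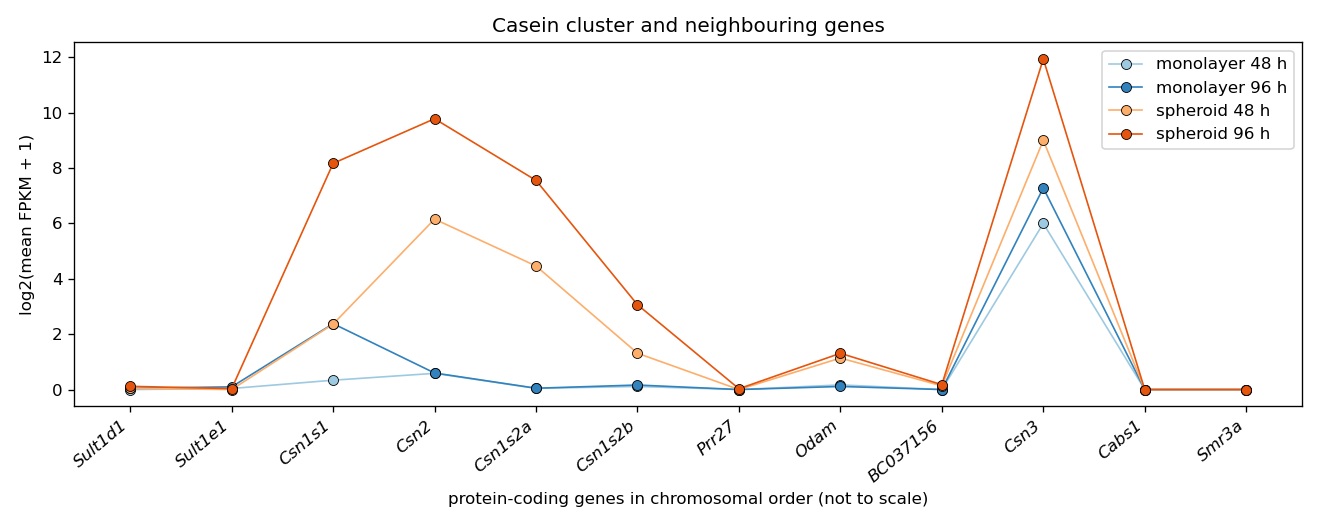
Level of each gene in and beside the casein cluster in chromosomal order (spacing not to scale), as log2(mean FPKM + 1), by group. The 5 caseins stand out in spheroids at 96 h, Odam is low, and the remaining genes are at or near 0.

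By Pearson correlation of log2 CPM over the 12 libraries, the genes most like Csn2 outside the set were Afap1l2 (its row merges AK158196 and mKIAA1914; r = 0.997), Tcf7l2 (0.997), Coro2a (0.995), Col4a6 (0.994), Ints4 (0.994), Cx3cl1 (0.994), Prkch (0.993) and Muc1 (0.993), a membrane mucin of milk fat globules. The same measure was 0.997 for Csn1s2a, 0.989 for Lalba, 0.986 for Csn1s2b, 0.955 for Csn3 and 0.845 for Csn1s1. By rank, Csn1s2a was 2 and Csn1s1 1635. The 12 libraries fall into 4 groups, so these values mainly describe the relative spacing of the group means, and 308 genes had an r above 0.95.

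The hormone pathway was taken from a list of 12 genes of prolactin and STAT5 signalling, of which 11 were tested. In spheroids 7 rose and 1 fell at 48 h, and 5 rose and 3 fell at 96 h. The share that changed was 72.7% at each time, beside 57.9% of all tested genes at 48 h and 73.8% at 96 h. The list's median log2 fold change was 1.06 at 48 h and 0.47 at 96 h. The prolactin receptor gene Prlr had 15.2 ± 3.65 CPM in monolayers and 126.8 ± 15.1 CPM in spheroids at 48 h, and 25.5 ± 4.10 and 146.8 ± 6.09 CPM at 96 h (5.72-fold, adjusted p = 1.98e-12 by edgeR). Stat5a, the STAT5 form best known from milk genes, had 16.6 ± 2.06 and 200.3 ± 15.6 CPM at 48 h and 14.3 ± 0.943 and 142.9 ± 4.11 CPM at 96 h (9.94-fold, adjusted p = 5.59e-16). For both genes every spheroid library was above every monolayer library.

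Elf5, a transcription factor of alveolar cells, had 6.17 ± 0.254 and 141.7 ± 3.90 CPM at 48 h and 11.1 ± 0.524 and 262.0 ± 9.99 CPM at 96 h (23.5-fold, adjusted p = 2.67e-18 by edgeR). Stat5b was 2.33-fold higher in spheroids at 96 h. Jak2, the receptor's kinase, was lower at 96 h (log2 fold change -0.70) and so was Socs1, an inhibitor of the pathway (0.934 CPM against 1.85 CPM). Cish, another inhibitor and a known STAT5 target, was 4.47-fold higher at 96 h. Other genes of the list did not share this rise. Monolayers at 96 h averaged 94.8 CPM for Socs2, 23.7 CPM for Socs3 and 420 CPM for Ccnd1. The 96 h spheroids averaged 84.8, 17.8 and 443 CPM in the same order. Socs3 fell, and the Socs2 and Ccnd1 differences did not pass. STAT5 activity itself was not tested. Between 48 h and 96 h in spheroids, while all 6 milk protein genes rose, Elf5 rose 1.85-fold and Stat5a fell (log2 fold change -0.49, adjusted p = 2.67e-05). Prlr (0.21, adjusted p = 0.135) and Stat5b (-0.16, adjusted p = 0.0980) did not pass there.

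**Figure D5:**
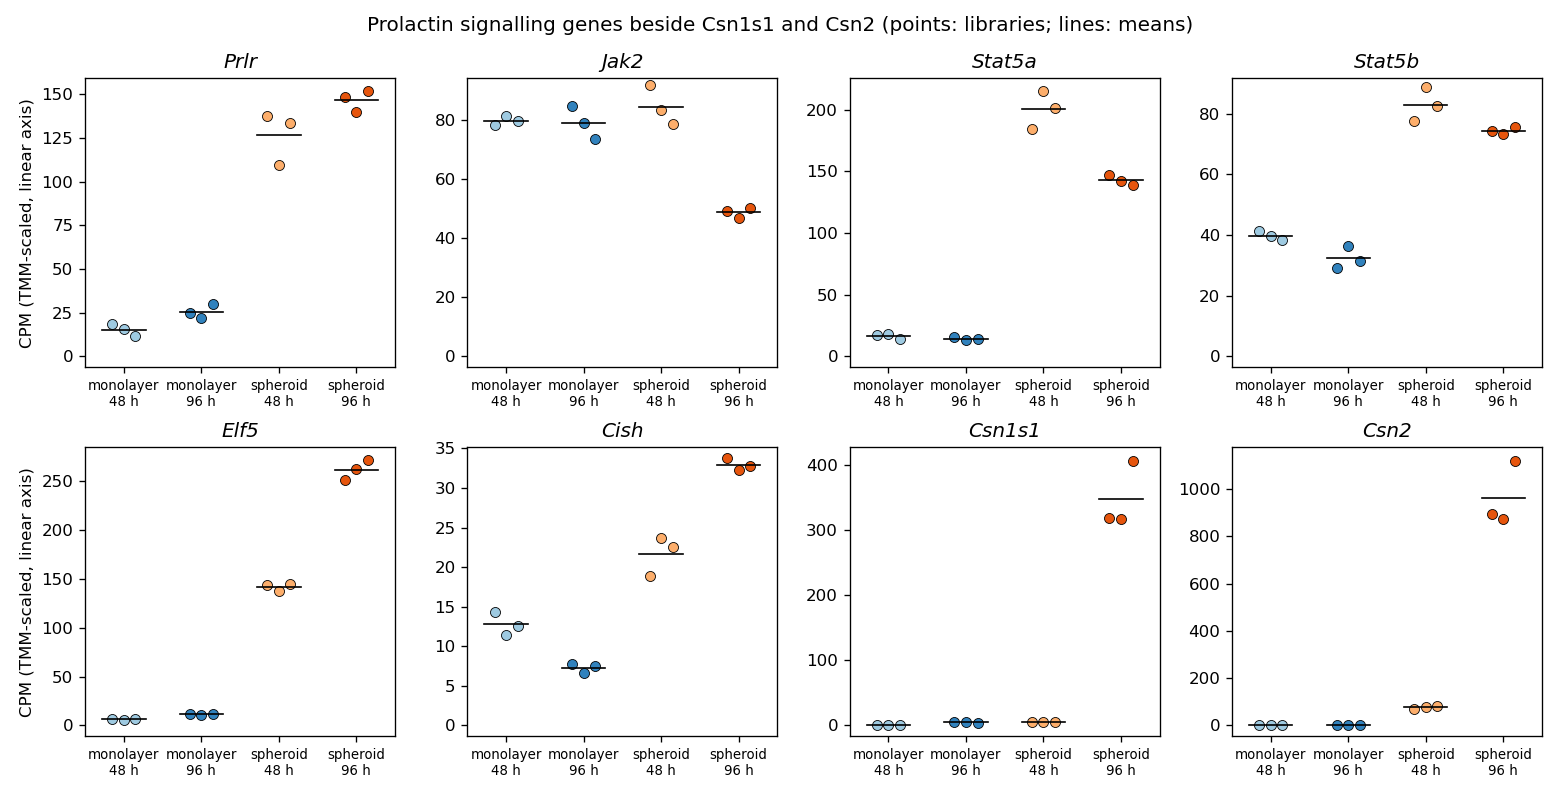
Levels of Prlr, Jak2, Stat5a, Stat5b, Elf5 and Cish in each library beside Csn1s1 and Csn2, in CPM on linear axes, by group (lines are group means). Stat5a and Elf5 are apart between formats at both times, and Jak2 is lowest in spheroids at 96 h.

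Of the 14 transcription factors reported at milk gene promoters, 9 rose and 2 fell in spheroids at 96 h, or 78.6% changed beside 73.8% of all tested genes. Gata3, a factor of luminal cells, was 3.69-fold higher, the progesterone receptor gene Pgr 2.81-fold and Nfix, an NF1 factor, 2.69-fold. Cebpb, a C/EBP factor, was 1.77-fold higher. The glucocorticoid receptor gene Nr3c1 was lower (log2 fold change -0.36), as was the row that merges Runx2 and Runx3 (-0.48). With time in spheroids Pgr fell (-1.20), and Gata3, Cebpb and Nr3c1 did not pass.

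Among 20 genes of other milk proteins, 17 were tested, and 14 rose and 2 fell in spheroids at 96 h, or 94.1% changed beside 73.8% of all tested genes. Ltf, which encodes lactoferrin, an iron-binding protein, was 105-fold higher, at 5029 ± 410 CPM against 47.9 ± 5.75 CPM. Pigr, the receptor that carries antibodies into milk, was 72.4-fold higher and Lpo, the milk peroxidase, 34.5-fold. The members that fell were Spp1, which encodes osteopontin (log2 fold change -1.54), and Plin2, a protein of lipid droplets (-1.63). Both of these had been higher in spheroids at 48 h, by 2.47 and 0.91.

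The genes of lactose synthesis moved in both directions: of 10, 4 rose and 4 fell in spheroids at each time, or 80% changed beside 57.9% of all tested genes at 48 h and 73.8% at 96 h. Under scaling by total count alone, 4 rose and 3 fell at 48 h, and 3 rose and 5 fell at 96 h. B4galt1, the partner of Lalba, had 179.7 ± 4.73 CPM in monolayers and 289.7 ± 6.49 CPM in spheroids at 48 h, and 278 ± 16.9 and 180.1 ± 5.71 CPM at 96 h. It was higher in spheroids at 48 h (log2 fold change 0.69) and lower at 96 h (-0.63), so its course over the groups was not that of Lalba. Ugp2, which makes UDP-glucose, rose 2.23-fold at 96 h and the hexokinase gene Hk1 1.35-fold. The glucose transporter gene Slc2a1 (-1.46) and Hk2 (-1.01), another hexokinase gene, fell.

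Of 8 tested genes of casein phosphorylation and milk calcium, 4 rose and 2 fell in spheroids at 96 h (3 and 3 by total count alone), or 75% changed beside 73.8% of all tested genes. Atp2c2, a calcium pump of the secretory pathway, was 5.31-fold higher, and Atp2b1, a calcium pump of the plasma membrane, 1.78-fold. The calcium channel gene Orai1 was 1.20-fold higher (adjusted p = 0.0252 by edgeR), a call that scaling by total count alone did not keep. Fam20c, the kinase that phosphorylates caseins, was lower (log2 fold change -1.19), as was its partner Fam20a (-0.74). A list of 6 genes held laminin receptors and the integrin-linked kinase gene Ilk. Of these 6, 3 rose and 3 fell in spheroids at 96 h, when 73.8% of all tested genes changed. Itga6 was 2.28-fold, Dag1, the dystroglycan gene, 1.59-fold and Itgb4 1.51-fold higher. Itgb1 (log2 fold change -1.28) and Ilk (-0.51) were among those that fell.

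Markers of the cell types that such a culture can hold moved with the groups. Library totals were 7674105 to 13554497 counts. The 6 luminal epithelial markers, all detected in all groups, summed to 9803 to 11577 CPM in monolayers and 6014 to 6496 CPM in spheroids at 48 h, and to 4219 to 4548 and 5501 to 5825 CPM at 96 h. The 6 basal markers summed to 1779 to 2020 and 1334 to 1422 CPM at 48 h, and to 231 to 322 and 1158 to 1185 CPM at 96 h. Of these 6 genes 4 rose and 2 fell in spheroids at each time. Of all tested genes 57.9% changed between formats at 48 h and 73.8% at 96 h, the background for each marker list. The lower basal sum of the 48 h spheroids came with the fall of Acta2 (1206 CPM in monolayers, 48.0 CPM in spheroids) and Myh11 (88.7 and 13.9 CPM). The 6 fibroblast markers summed to 7544 to 8313 and 1877 to 2139 CPM at 48 h, and to 1662 to 2272 and 640 to 693 CPM at 96 h. The fibroblast sum was lower in spheroids at both times, although of its 6 genes 3 fell and 2 rose at 48 h, and 4 fell and 1 rose at 96 h. The luminal sum was lower in spheroids at 48 h and higher at 96 h. Of its 6 genes 1 rose and 5 fell at 48 h, and 4 rose and 1 fell at 96 h. Against the sum, Krt19 rose at 48 h (453 CPM in monolayers, 1528 CPM in spheroids). Cldn4 fell against it at 96 h (671 and 363 CPM). The 4 endothelial markers summed to at most 56.2 CPM and the 4 immune markers to at most 32.7 CPM in any library. Cd3e was at 0 in the 96 h monolayers. The endothelial sum was 31.1 to 43.8 CPM in monolayers and 21.5 to 28.1 CPM in spheroids at 48 h. At 96 h it was 53.9 to 56.2 and 5.49 to 6.50 CPM. The immune sum was 4.11 to 6.71 and 6.94 to 10.9 CPM at 48 h. At 96 h it was 22.6 to 32.7 and 6.26 to 7.49 CPM. The 4 adipocyte markers summed to at most 3.03 CPM, with Adipoq, Plin1 and Lep at 0 in monolayers at 48 h, Plin1, Lep and Cidec at 0 in monolayers at 96 h, and Lep at 0 in spheroids at 48 h. The part of these cell types in the casein and whey results was not tested.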

How the data were processed

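RNA from 12 cultures was sequenced from Illumina TruSeq libraries. The tables rest on RSEM 1.2.30, Bowtie 1.0.1 and bcl2fastq 2.15.0 with build mm9, per the submitters' processing notes, and the strand setting is not known from them. From RSEM the authors deposited expected counts, rounded to whole numbers, and log2 values of FPKM plus 1, per the labels and the values. FPKM was recovered from the latter.

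Counts were tested with edgeR 4.0.16 in R 4.3.3: filterByExpr (minimum count 10, minimum total 15), TMM scaling (factors 0.923 to 1.07), and 1 quasi-likelihood fit to all 12 libraries with group as its term, 2-sided, with a threshold of 0.05 on the Benjamini-Hochberg adjusted p. The SE is the log2 fold change divided by the root of F and can understate the error of a group with few counts. CPM used TMM-scaled library sizes, on which 3 counts in one library equal 0.223 to 0.375 CPM. Reads carried no molecular identifiers, so counting intervals (95%, exact Clopper-Pearson) and floors cover counting error only. Scripts were tested on simulated data. Of all rows, 2093 merge several symbols.

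The members, the gene lists and the rules were chosen with earlier results of these data known. Named from each list were up to 3 genes with the largest rise and 2 with the largest fall in spheroids at 96 h, plus direct regulators or partners of a member. A gene that the rule would name is not reported here. Cish is named outside this rule, after its values were seen, and Socs2, Socs3 and Ccnd1 of its list are given beside it. Replicates of a group differed by more than counting error (chi-square per degree of freedom 2.44 to 17.7). Alternatives were other scaling (RLE, total count), DESeq2 1.42.0, other filters, contrast groups alone, limma 3.58.1 on log2 values, a replicate block and leaving out each library.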

Additional observations from a re-analysis of the deposited data

Results flagged for a closer look

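For 3 genes the difference between spheroids and monolayers was itself different at the 2 times by the interaction term of the edgeR fit. On the log2 scale the spheroid difference at 96 h exceeded that at 48 h by 3.67 for Csn2 (4.38e-05 as adjusted p), by 1.84 for Csn3 (adjusted p = 3.22e-07) and by 1.78 for Csn1s1 (adjusted p = 0.0405). In Csn2 the monolayers were at 0.581 and 0.532 CPM on average at 48 h and 96 h, while in Csn1s1 and Csn3 both formats rose with time. Of all tested genes 53.3% passed the same test.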

How the results depend on the processing

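Over 54 results and their alternatives, 972 of 998 values were counted as the same. For single genes this meant the same direction and side of the threshold. For counts of genes it meant a count within 1.5-fold, and for shares the same direction. In the comparisons of format at each time, and of time in spheroids, the 6 tested genes passed under all 20 alternatives, and in monolayers over time Csn1s1 and Csn3 did so. With the replicate block, which the labels do not tie to a shared animal or day, 6, 6, 2, 6 and 3 milk protein genes passed in the 5 planned comparisons, as without it, and 8111 genes in all at 48 h and 10287 at 96 h. Same-numbered libraries deviated together with correlations of -0.11 to 0.0881, none above 0.1. With limma on log2(FPKM + 1), 6 genes instead of 3 passed the interaction (leave-one-out counts 2 to 3), and changes of low genes shrank, as to 2.03 for Csn1s1, 4.42 for Csn1s2a and 2.92 for Lalba at 48 h. The Csn1s1 interaction call ended with total count scaling (adjusted p = 0.0558). It ended also when any 1 library of the 48 h monolayers was left out (0.0513 to 0.290), or replicate 1 or 3 of the 48 h spheroids (0.0507 each), or replicate 3 of the 96 h monolayers (0.0530). Values near 0, or resting on few monolayer counts, turned sign, some of them widely, and the cause was not tested. For Csn2 over time in monolayers these were 0.16 by total count, 0.0307 with the stricter filter, 0.0112 with limma, and 0.38 and 0.24 without replicate 1 at 48 h or replicate 2 at 96 h (-0.22 to 0.38 with 1 library left out). In the same comparison Csn1s2a gave -0.35 and -0.40 without replicates 1 or 3 at 48 h and -1.86 without replicate 3 at 96 h (-1.86 to 1.91), and Csn1s2b gave -0.18 without replicate 1 at 96 h (-0.18 to 0.95). The Lalba interaction was 0.36 with DESeq2, 1.21 with limma (adjusted p = 0.000233) and 1.40 once replicate 3 of the 96 h monolayers was left out (-1.06 to 1.40). Csn1s1 in 48 h spheroids against 96 h monolayers was -0.0071 with limma. The Csn1s2a share difference was -0.0687 points with scaled counts and -0.0769 to 0.215 with 1 library left out. Scaling by total count alone moved the median of all genes at 48 h by 0.109 on the log2 scale and turned no called list gene to an opposite call. No value exists for Lalba over time in monolayers without replicate 3 at 96 h, where both groups are at 0, and the fit of the contrast's groups alone could not be applied to the interaction. Depth limits the monolayer values: Csn1s2a, Csn1s2b and Lalba held at most 3 counts per group there.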
